A study of Mus musculus with 20 samples.

Results

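A set of 10 regulators and targets in the ATF4 arm of the integrated stress response was followed by name through every RNA-seq library. The libraries came from 3T3-L1 adipocytes labelled for overexpression or shRNA knockdown of the forkhead factor Foxk1 or Foxk2, and from their controls. The genes are Atf4, Atf3, Atf5 and Ddit3, which encode transcription factors, Trib3 and Ppp1r15a, which feed back on the response, Ddit4 and Sesn2, which restrain growth signalling, and Asns and Chac1, which act in amino acid and glutathione metabolism. All 10 were found among the 48440 genes of the expression table by their Ensembl identifiers, and all 10 were among the 15981 genes tested. 3T3-L1 is a mouse cell line, given as Swiss mouse, that turns from fibroblast-like preadipocytes into fat-storing cells when stimulated with hormones. The cells here received 1 µM dexamethasone, 0.5 mM isobutylmethylxanthine, 5 µg/ml insulin and 10 µM troglitazone, then insulin alone from day 4 and plain growth medium from day 6. The 20 libraries form 4 pairs of groups, each manipulation with its own control. Libraries labelled as overexpressing FOXK1 (n = 3) were set against empty-vector libraries (n = 3), and cells with a Foxk1 shRNA (n = 3) against cells with a scrambled shRNA (n = 3). Cells overexpressing FOXK2 (n = 2) were set against their own empty-vector cells (n = 2), and cells with a Foxk2 shRNA (n = 2) against their own scrambled-shRNA cells (n = 2). The promoter of the constructs, the number of shRNAs and of clones, and whether replicates came from separate cultures are not given in the sources used here, so the p-values measure only the spread between these libraries.

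The integrated stress response begins when a kinase phosphorylates the translation factor eIF2 upon amino acid shortage, misfolded protein in the endoplasmic reticulum, haem shortage or viral RNA. General translation then slows, while the Atf4 mRNA is translated better because of short reading frames in its leader, and ATF4 protein with its C/EBP partners switches on genes for amino acid supply, redox balance and, when stress lasts, cell death. Because much of the control lies in translation, the mRNA levels given here do not measure ATF4 protein.

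Levels are in RPKM, reads scaled to exon length and to library depth, so they can be compared between genes. Depth was worked out from the RPKM values and exon lengths and is not a reported read count. It was 16739763 to 20772823 reads per library in the Foxk1 set and 31378224 to 36157008 in the Foxk2 set. Mitochondrial genes took 4.91 to 6.61% and 3.79 to 7.81% of the reads worked out in the same way. The Foxk1 mRNA was 6.16, 6.06 and 6.08 RPKM in the libraries labelled Foxk1 overexpression, against 7.11, 7.48 and 8.04 RPKM in their empty-vector controls, a log2 fold change of -0.28. It goes against the label, so that group is called by its label throughout, and every direction given for it carries this limit. In the other groups the targeted mRNA moved as labelled. Foxk1 had a log2 fold change of -1.23 with the Foxk1 shRNA, and Foxk2 had 0.56 with overexpression and -1.83 with the Foxk2 shRNA. The untargeted factor moved as well: Foxk2 had a log2 fold change of 0.29 in the libraries labelled Foxk1 overexpression and -0.19 with the Foxk1 shRNA, while Foxk1 had -0.66 with Foxk2 overexpression and 0.30 with the Foxk2 shRNA. The tests compare log2(RPKM + 0.5), and a call is an adjusted p under 0.05 from limma over all genes tested. Since the RNA came from whole cultures, fewer cells of a type and less RNA per cell cannot be told apart.

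Promoter sequence shows what the 10 genes share and do not share in the DNA around their start sites. A search for 5 motifs covered both strands of the RefSeq windows (GRCm38.p6) that run from 250 bases before each start site to 50 bases after it, 11 windows for the 10 genes. The C/EBP-ATF response element TGATGNAA, a composite site for a C/EBP and an ATF protein, occurred for 4 genes, Atf3, Trib3, Chac1 and Asns, and in 3.97% of all 32851 windows. At Trib3 it lay downstream of the start site, at position 15. The cAMP response element TGACGTCA occurred once, at Ppp1r15a, and in 1.79% of all windows. The hypoxia response core ACGTG occurred at Ddit3, Ddit4, Asns and Ppp1r15a and in 19.6% of all windows, with none of these matches overlapping the other motifs. At Ddit3 it lay downstream of the start site, at position 22. The forkhead motif GTAAACA, the type of sequence that FOXK proteins bind, was in none of the 11 windows and in 3.65% of all windows. The endoplasmic reticulum stress element, CCAAT followed after 9 bases of any kind by CCACG, was also in none, and in 0.119% of all windows. All C/EBP-ATF and cAMP matches upstream of a start site were taken for printing. Of the hypoxia core only the match at Ddit4 was taken, chosen by name, and the upstream matches at Asns and Ppp1r15a were left out. The stretches around these 5 matches are printed because they show letters behind the motif counts. They run 5′ to 3′ on the gene's strand and capitals mark the matched motif, which is a match of letters and not a shown binding site. Atf3 lies at chr1:191183406-191183473 on the minus strand, Chac1 at chr2:119351019-119351086 on the plus strand and Asns at chr6:7693210-7693262 on the minus strand, each with the C/EBP-ATF element. Ppp1r15a at chr7:45526269-45526310 on the minus strand has the cAMP element, and Ddit4 at chr10:59951923-59951987 on the minus strand the hypoxia core.
Atf3: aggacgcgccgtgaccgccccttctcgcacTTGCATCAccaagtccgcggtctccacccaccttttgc
Chac1: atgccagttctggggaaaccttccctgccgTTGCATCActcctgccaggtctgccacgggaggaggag
Asns: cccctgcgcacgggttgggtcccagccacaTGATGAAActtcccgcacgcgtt
Ppp1r15a: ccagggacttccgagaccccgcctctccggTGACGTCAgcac
Ddit4: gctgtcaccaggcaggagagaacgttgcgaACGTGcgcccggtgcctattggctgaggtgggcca
In Atf3 and Chac1 the element lies on the opposite strand and so appears as its reverse complement, with the same letters at both genes.

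The 10 genes rose together in the libraries labelled Foxk1 overexpression, where 10 of 10 were higher, against 24.1% of all genes tested. With knockdown of Foxk1 all 10 fell, 10 of 10, against 15.5% of all genes tested. With Foxk2 overexpression 8 of 10 rose, against 23.0% of all genes, while Trib3 and Sesn2 did not pass the test. With the Foxk2 shRNA 7 of 10 fell, against 15.7% of all genes, while Atf5, Ddit4 and Sesn2 did not pass. The median log2 fold change of the 10 genes was 0.75 in the libraries labelled Foxk1 overexpression, -0.71 with the Foxk1 shRNA, 0.34 with Foxk2 overexpression and -0.29 with the Foxk2 shRNA. The corresponding medians over all genes tested lay between 0.00 and 0.0169. The set was chosen with earlier results of these data known, so its comparison with all genes tested is not an independent test. Atf4, Atf3, Ddit3, Chac1, Asns and Ppp1r15a were called higher in both overexpression comparisons and lower in both knockdown comparisons, which 4.52% of all genes tested did. Within the Foxk1 set alone 10 of 10 were called higher in the libraries labelled Foxk1 overexpression and lower with the shRNA, against 8.82% of all genes, and within the Foxk2 set 6 of 10, against 10.4%. The libraries of a manipulation and its control did not overlap for 10 of 10 genes in each Foxk1 comparison, where 26.4% of all genes stood apart and higher in the libraries labelled Foxk1 overexpression and 18.9% apart and lower with the Foxk1 shRNA. Of the Foxk2 comparisons, overexpression had 8 of 10 apart and higher, against 36.2% of all genes. After knockdown of Foxk2, 8 of 10 stood apart and lower, against 32.5% of all genes, and 1, Ddit4, stood apart and higher, against 34.7%.

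**Figure D1:**
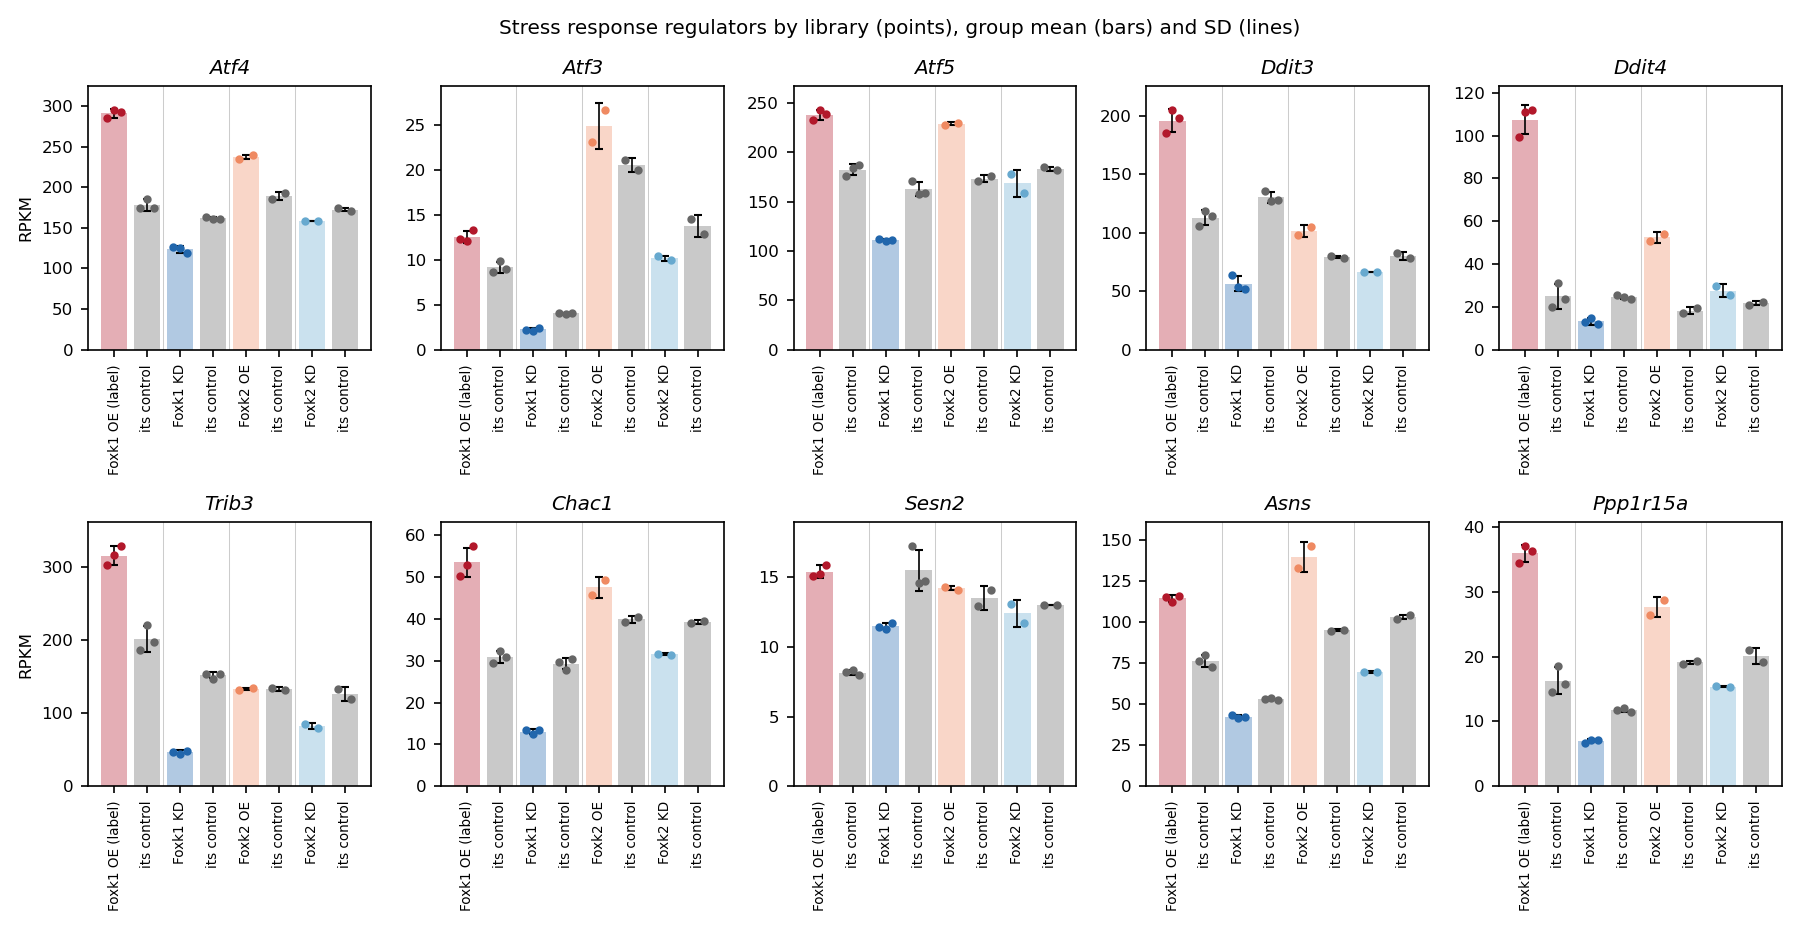
RPKM (linear axis from 0) of the 10 genes in each of the 20 libraries, by group; points are libraries, bars group means and lines the SD. In the libraries labelled Foxk1 overexpression every gene lies above its empty-vector controls, as for Ddit4 with 99.6 to 112 RPKM against 19.8 to 31.4 RPKM.

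Atf4 encodes the transcription factor at the centre of the response, and its mRNA was among the most abundant of the set. It had 285, 295 and 293 RPKM in the libraries labelled Foxk1 overexpression, against 174, 186 and 174 RPKM in empty-vector libraries. With the Foxk1 shRNA it had 127, 125 and 119 RPKM, against 163, 161 and 161 RPKM with the scrambled shRNA. The groups did not overlap on either side, and the log2 fold changes were 0.71 ± 0.032 (SE, adjusted p = 9.30e-11) and -0.38 ± 0.032 (adjusted p = 1.99e-07). Foxk2-overexpressing cells had 235 and 239 RPKM of Atf4, against 186 and 193 RPKM in their empty-vector controls. Both Foxk2 shRNA libraries had 158 RPKM, against 174 and 171 RPKM with the scrambled shRNA. These groups also stood apart, but the changes were smaller, at 0.32 ± 0.0392 (adjusted p = 5.88e-06) and -0.13 ± 0.0392 (adjusted p = 0.0186). Quantile normalization put the Foxk2 overexpression value at 0.15 and the Foxk2 shRNA value at -0.06, the last with an adjusted p of 0.235. The fall with the Foxk2 shRNA did not pass without scrambled replicate 1 (adjusted p = 0.116), without shRNA replicate 1 (0.069) or without shRNA replicate 2 (0.0763).

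Atf3 encodes a stress-induced factor that can repress as well as activate. It had 12.3, 12.1 and 13.3 RPKM in the libraries labelled Foxk1 overexpression, against 8.64, 9.86 and 8.98 RPKM in empty-vector libraries. Foxk1 shRNA libraries had 2.23, 2.14 and 2.42 RPKM, against 4.05, 4.00 and 4.09 RPKM with the scrambled shRNA. Both pairs of groups stood apart, with log2 fold changes of 0.44 ± 0.064 (adjusted p = 3.93e-05) and -0.72 ± 0.064 (adjusted p = 3.72e-07). In the Foxk2 set Atf3 had 23.1 and 26.7 RPKM with overexpression, against 21.1 and 20 RPKM with the empty vector. With the Foxk2 shRNA it had 10.4 and 9.96 RPKM, against 14.6 and 12.9 RPKM with the scrambled shRNA. The fall with the shRNA was -0.42 ± 0.0783 (adjusted p = 0.000631). The rise with Foxk2 overexpression, 0.27 ± 0.0783 (adjusted p = 0.0111), did not pass without empty-vector replicate 2 (0.23, adjusted p = 0.0837), without overexpression replicate 2 (0.17, adjusted p = 0.17), or when the Foxk2 set was fitted alone (adjusted p = 0.0643).

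Atf5 is the closest relative of Atf4 and, like it, is controlled through its leader in translation. It had 233, 243 and 239 RPKM in the libraries labelled Foxk1 overexpression, against 176, 184 and 187 RPKM in empty-vector libraries. In cells with the Foxk1 shRNA it had 112, 110 and 111 RPKM, against 171, 158 and 159 RPKM with the scrambled shRNA. The changes were 0.39 ± 0.0394 (adjusted p = 8.23e-07) and -0.55 ± 0.0394 (adjusted p = 4.28e-08), with no overlap between groups. Foxk2-overexpressing cells had 228 and 230 RPKM, against 171 and 176 RPKM with the empty vector, a log2 fold change of 0.40 ± 0.0483 (adjusted p = 5.67e-06). Under the Foxk2 shRNA the values were 178 and 159 RPKM, against 185 and 182 RPKM with the scrambled shRNA. The shRNA libraries lay below both controls but apart from each other, and the log2 fold change of -0.13 ± 0.0483 did not pass (adjusted p = 0.0583); without shRNA replicate 1 it was -0.21 and passed (adjusted p = 0.00561), it also passed without scrambled replicate 1 of the Foxk1 set (adjusted p = 0.041), and without shRNA replicate 2 it was -0.04. It also passed with median-ratio scaling (-0.15, adjusted p = 0.0296) and with voom on recovered reads (adjusted p = 0.0285). Quantile normalization put the change of Atf5 at 0.25 in the libraries labelled Foxk1 overexpression and 0.26 with Foxk2 overexpression, both called, and removal of length and GC trends put the second at 0.62 and the Foxk2 shRNA value at -0.27, which then passed (adjusted p = 2.38e-05). Atf5 shares 82 exon bases, 4.11% of its exons, with antisense genes, and the strand used in counting is not stated, so a small part of its reads may belong to them.

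Ddit3 encodes CHOP, a C/EBP-family protein tied to cell death under lasting stress that also holds back adipocyte differentiation. It had 185, 205 and 198 RPKM in the libraries labelled Foxk1 overexpression, against 106, 119 and 114 RPKM in empty-vector libraries. With the Foxk1 shRNA it had 63.8, 53.5 and 52.1 RPKM, against 136, 127 and 128 RPKM with the scrambled shRNA. The log2 fold changes were 0.80 ± 0.0653 (adjusted p = 7.62e-08) and -1.21 ± 0.0653 (adjusted p = 2.43e-09), so that knockdown left 0.434 of the control level. Among the Foxk2 libraries Ddit3 had 98.1 and 105 RPKM with overexpression, against 80.1 and 78.8 RPKM with the empty vector, and rose by 0.35 ± 0.080 (adjusted p = 0.00211). Foxk2 shRNA libraries had 66.5 and 66.4 RPKM, against 82.9 and 78.1 RPKM with the scrambled shRNA, and fell by 0.27 ± 0.080 on the log2 scale (adjusted p = 0.0147). That fall did not pass without scrambled replicate 1 (adjusted p = 0.109), without shRNA replicate 1 (0.0616), without shRNA replicate 2 (0.064), or with length and GC trends removed (0.0571). Ddit3 overlaps a second annotated gene of the same name over 105 exon bases and the antisense gene Mars over 68, which is 6.13% and 3.97% of its exons, so its counts are uncertain to that extent.

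Trib3 encodes a pseudokinase that is induced by ATF4 and CHOP and in turn dampens ATF4 and AKT signalling. It was the most abundant of the 10 genes in the libraries labelled Foxk1 overexpression, with 302, 316 and 328 RPKM, against 187, 221 and 197 RPKM in empty-vector libraries. Foxk1 shRNA libraries had 47.1, 44.0 and 48.7 RPKM, against 154, 147 and 154 RPKM with the scrambled shRNA. That was the largest fall of any of the 10 genes in any of the 4 comparisons, -1.70 ± 0.0589 (adjusted p = 9.17e-11) or 0.309 of the control level, and the rise was 0.64 ± 0.0589 (adjusted p = 2.61e-07). Foxk2-overexpressing cells had 132 and 134 RPKM, against 135 and 131 RPKM with the empty vector. The groups overlapped and the log2 fold change was 0.00 ± 0.0722 (adjusted p = 1.00). Its level with the Foxk2 shRNA was 85.7 and 80.1 RPKM, against 133 and 119 RPKM with the scrambled shRNA, and fell by 0.60 ± 0.0722 on the log2 scale (adjusted p = 1.05e-05).

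Ppp1r15a encodes GADD34, the stress-induced subunit that brings a phosphatase to eIF2 and so ends the translation block. It had 34.5, 37.0 and 36.3 RPKM in the libraries labelled Foxk1 overexpression, against 14.5, 18.6 and 15.7 RPKM in empty-vector libraries. In cells with the Foxk1 shRNA it had 6.72, 7.20 and 7.21 RPKM, against 11.7, 12 and 11.5 RPKM with the scrambled shRNA. It was 2.18-fold higher in the first comparison (log2 1.12 ± 0.0672, adjusted p = 2.12e-09) and fell by 0.70 ± 0.0672 on the log2 scale in the second (adjusted p = 8.96e-07). In the Foxk2 set it had 26.5 and 28.7 RPKM with overexpression, against 18.9 and 19.3 RPKM with the empty vector, and rose by 0.51 ± 0.0824 (adjusted p = 9.37e-05). In cells with the Foxk2 shRNA it had 15.4 and 15.3 RPKM, against 21 and 19.2 RPKM with the scrambled shRNA, and the log2 fold change was -0.38 ± 0.0824 (adjusted p = 0.00209). In none of the 4 comparisons did the groups overlap.

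Ddit4 encodes REDD1, an inhibitor of the growth kinase complex mTORC1 that answers to hypoxia and glucocorticoids as well as to ATF4, and it showed the largest rise of the set. It had 99.6, 111 and 112 RPKM in the libraries labelled Foxk1 overexpression, against 19.8, 31.4 and 23.6 RPKM in empty-vector libraries. With the Foxk1 shRNA it had 13.1, 14.7 and 11.8 RPKM, against 25.4, 24.4 and 23.9 RPKM with the scrambled shRNA. It was thus 4.31-fold higher in the libraries labelled Foxk1 overexpression (log2 2.11 ± 0.123, adjusted p = 1.63e-09) and 0.545 of the control with the shRNA (log2 -0.87 ± 0.123, adjusted p = 4.58e-05). Foxk2-overexpressing cells had 50.7 and 54.2 RPKM, against 17.0 and 19.5 RPKM with the empty vector, a rise of 2.83-fold (log2 1.5 ± 0.151, adjusted p = 8.51e-07). With the Foxk2 shRNA it had 29.7 and 25.4 RPKM, against 21 and 22.3 RPKM with the scrambled shRNA. Both shRNA libraries lay above both controls, opposite to the Foxk1 shRNA, but the log2 fold change of 0.34 ± 0.151 did not pass (adjusted p = 0.104). It passed as higher with voom on reads recovered from the RPKM values (adjusted p = 0.0232) and without replicate 1 (0.0466) or replicate 2 (0.0227) of the Foxk1-set empty-vector libraries, which enter that test only through the shared estimate of the spread.

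Sesn2 encodes sestrin 2, a leucine sensor that holds mTORC1 back when amino acids are short. It had 15.1, 15.2 and 15.9 RPKM in the libraries labelled Foxk1 overexpression, against 8.18, 8.32 and 7.96 RPKM in empty-vector libraries. Foxk1 shRNA libraries had 11.4, 11.3 and 11.7 RPKM, against 17.2, 14.6 and 14.7 RPKM with the scrambled shRNA. The changes were 0.88 ± 0.0566 (adjusted p = 4.99e-09) and -0.41 ± 0.0566 (adjusted p = 3.33e-05). Among the Foxk2 libraries Sesn2 had 14.3 and 14.1 RPKM with overexpression, against 12.9 and 14.1 RPKM with the empty vector. Foxk2 shRNA libraries had 13.1 and 11.7 RPKM, against 13.0 RPKM in both scrambled libraries. The groups overlapped on both sides, and neither 0.07 ± 0.0693 (adjusted p = 0.483) nor -0.07 ± 0.0693 (adjusted p = 0.543) passed. With length and GC trends removed both did, at 0.28 (adjusted p = 0.000784) and -0.22 (adjusted p = 0.00696).

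Asns encodes asparagine synthetase, the standard target of ATF4 under amino acid shortage. It had 115, 112 and 116 RPKM in the libraries labelled Foxk1 overexpression, against 76.2, 79.7 and 72.7 RPKM in empty-vector libraries. In cells with the Foxk1 shRNA it had 43.2, 41.8 and 42.0 RPKM, against 53.4, 53.5 and 52.8 RPKM with the scrambled shRNA. The changes were 0.58 ± 0.0351 (adjusted p = 2.29e-09) and -0.33 ± 0.0351 (adjusted p = 2.76e-06), with no overlap. In the Foxk2 set Asns had 133 and 146 RPKM with overexpression, against 94.6 and 95.4 RPKM with the empty vector. In cells with the Foxk2 shRNA it had 69.3 and 69.8 RPKM, against 102 and 104 RPKM with the scrambled shRNA. These groups stood apart too, at 0.55 ± 0.043 (adjusted p = 5.58e-08) and -0.56 ± 0.043 (adjusted p = 8.34e-08).

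Chac1 encodes an enzyme that degrades glutathione and is induced late in the response through ATF4 and ATF3. It had 50.3, 52.9 and 57.3 RPKM in the libraries labelled Foxk1 overexpression, against 29.5, 32.2 and 31.0 RPKM in empty-vector libraries. With the Foxk1 shRNA it had 13.4, 12.4 and 13.4 RPKM, against 29.6, 27.8 and 30.5 RPKM with the scrambled shRNA. The log2 fold changes were 0.78 ± 0.0498 (adjusted p = 4.25e-09) and -1.13 ± 0.0498 (adjusted p = 3.84e-10). Among the Foxk2 libraries it had 45.8 and 49.2 RPKM with overexpression, against 39.2 and 40.5 RPKM with the empty vector, and rose by 0.25 ± 0.061 (adjusted p = 0.00322). With the Foxk2 shRNA it had 31.7 and 31.4 RPKM, against 38.9 and 39.5 RPKM with the scrambled shRNA, and the log2 fold change was -0.31 ± 0.061 (adjusted p = 0.000937). Groups stood apart in all 4 comparisons, and removal of length and GC trends put the rise with Foxk2 overexpression at 0.38.

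**Figure D2:**
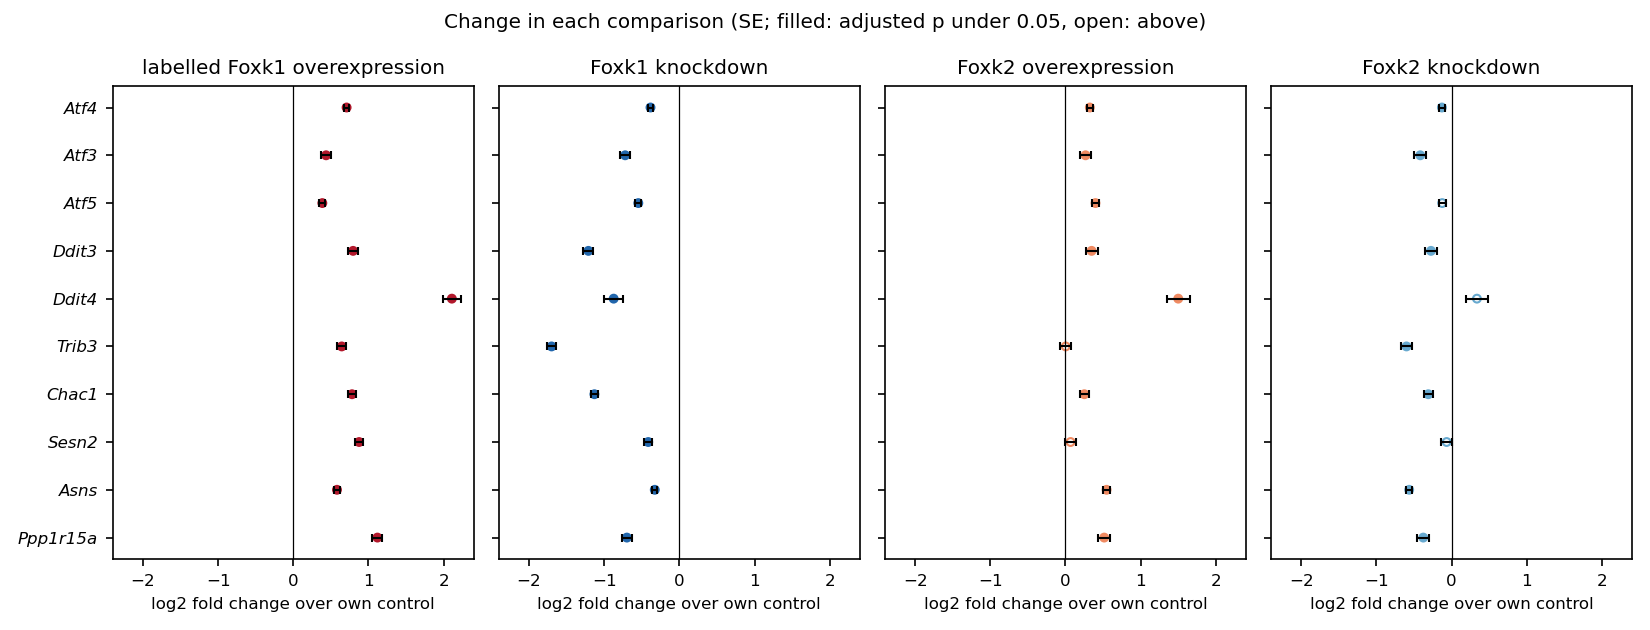
Log2 fold change of each gene over its own control in the 4 comparisons (x axis, log2 scale); bars are the SE, filled points passed the adjusted p threshold and open points did not. Open points are Trib3 and Sesn2 with Foxk2 overexpression and Atf5, Ddit4 and Sesn2 with the Foxk2 shRNA.

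The responses to the Foxk1 and Foxk2 manipulations differed in size for most of the genes. Between the libraries labelled Foxk1 overexpression and the Foxk2-overexpressing ones, the change over own control differed for 7 of 10 genes, against 25.1% of all genes tested. The rise was larger in the libraries labelled Foxk1 overexpression for all 7, with a difference of 0.81 ± 0.0895 for Sesn2, 0.64 ± 0.0932 for Trib3, 0.61 ± 0.106 for Ppp1r15a, 0.61 ± 0.195 for Ddit4, 0.53 ± 0.0787 for Chac1, 0.45 ± 0.103 for Ddit3 and 0.39 ± 0.0507 for Atf4 on the log2 scale (Foxk1 minus Foxk2). The differences for Atf3 (0.17 ± 0.101), Asns (0.0346 ± 0.0555) and Atf5 (-0.012 ± 0.0623) did not pass. Between the knockdowns, 8 of 10 differed, against 14.3% of all genes. The change was more negative with the Foxk1 shRNA for 7 of them, by -1.21 ± 0.195 for Ddit4, -1.10 ± 0.0932 for Trib3, -0.93 ± 0.103 for Ddit3, -0.82 ± 0.0787 for Chac1, -0.42 ± 0.0623 for Atf5, -0.35 ± 0.0895 for Sesn2 and -0.25 ± 0.0507 for Atf4; of these, Ddit4, Atf5 and Sesn2 had no called fall with the Foxk2 shRNA. Asns went the other way, falling more with the Foxk2 shRNA, with a difference of 0.24 ± 0.0555. The differences for Ppp1r15a (-0.32 ± 0.106, adjusted p = 0.0572) and Atf3 (-0.30 ± 0.101, adjusted p = 0.058) missed the threshold. The Foxk1 and Foxk2 sets also differ in depth and in the number of libraries, and the targeted mRNAs changed by different amounts, so a difference between factors and a difference between sets cannot be told apart.

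Some of these differences turned on single libraries or on a setting. The overexpression difference of Ddit4 (adjusted p = 0.0324) did not pass without replicate 1 or 2 of the Foxk2-overexpressing libraries, without replicate 2 of their empty-vector controls, without replicate 2 or 3 of the libraries labelled Foxk1 overexpression, or without replicate 1 or 3 of their empty-vector controls, with values of 0.46 to 0.66. Nor did it pass with no filter (adjusted p = 0.07), with quantile normalization (0.50, adjusted p = 0.069) or with length and GC trends removed (0.48, adjusted p = 0.0979). The knockdown difference of Sesn2 did not pass without Foxk2 shRNA replicate 1 (-0.27), without scrambled replicate 1 (-0.34) or without scrambled replicate 2 (-0.35) of the Foxk2 set. That of Asns did not pass without scrambled replicate 2 of the Foxk2 set (0.22, adjusted p = 0.0533). That of Atf3 passed without Foxk1 shRNA replicate 3 (-0.34) or scrambled replicate 1 of the Foxk2 set (-0.39), and, at -0.30, without either Foxk2-overexpressing library or replicate 2 of the Foxk1-set empty-vector libraries. It also passed with a minimum mean of 1 RPKM (adjusted p = 0.0477) or of 20 reads (0.0487), a pseudocount of 0.1 (-0.38, adjusted p = 0.0264), median-ratio scaling (0.0421) and quantile normalization (-0.44, adjusted p = 0.00812). That of Ppp1r15a passed, at -0.32, without replicate 1 or 2 of the Foxk1-set empty-vector libraries, and with either minimum mean (adjusted p = 0.0467 and 0.0448), median-ratio scaling (0.0495), quantile normalization (0.0325) and voom (0.0349). With length and GC trends removed the knockdown difference was -0.24 for Atf5, still called, and -0.20 for Sesn2, which no longer passed (adjusted p = 0.0886).

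**Figure D3:**
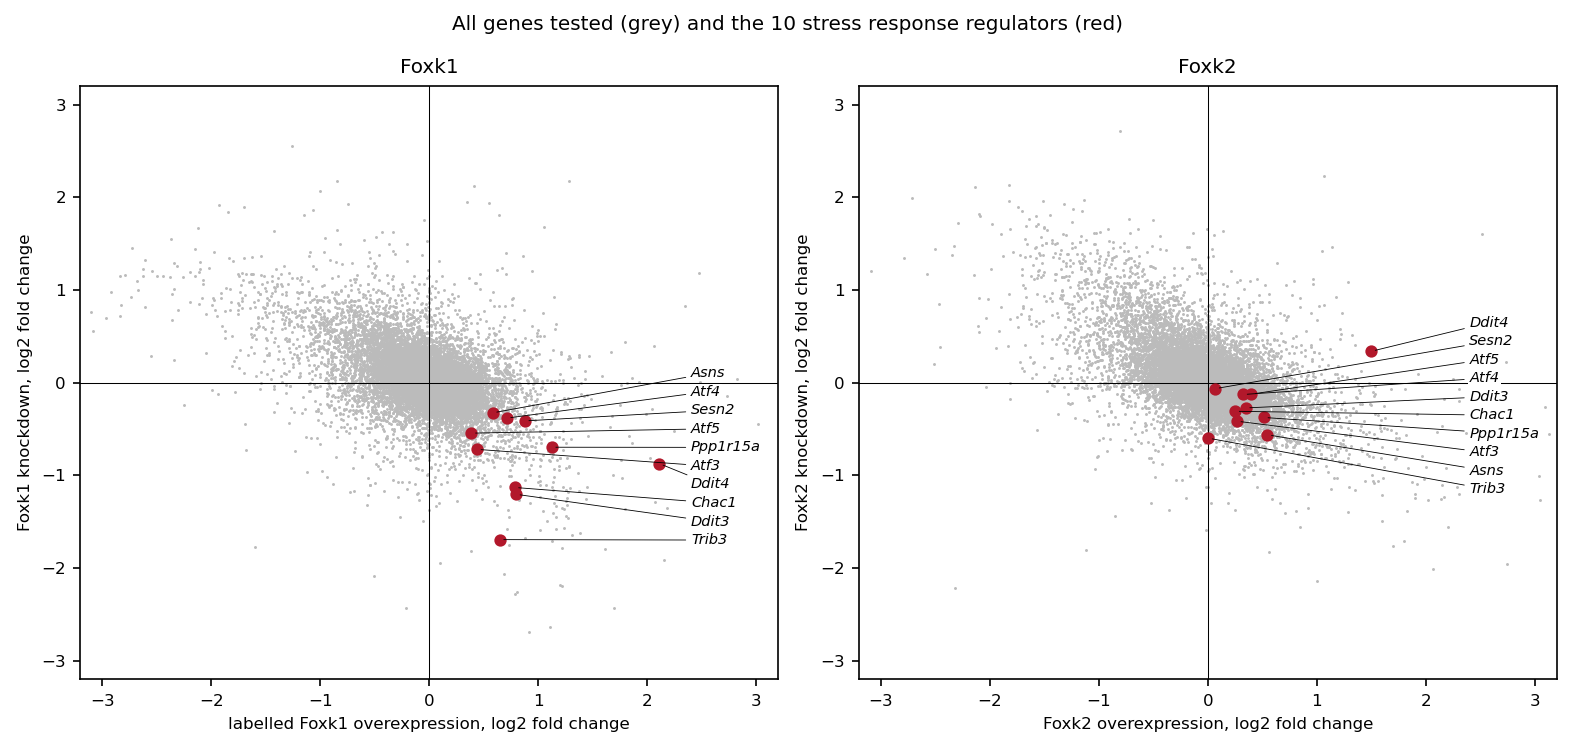
Log2 fold change with knockdown (y axis) against log2 fold change with overexpression (x axis) for all 15981 genes tested (grey) and the 10 genes (red), for Foxk1 as labelled and for Foxk2; 8 and 13 genes lie outside the axes. All 10 red points lie to the lower right in the Foxk1 panel, and in the Foxk2 panel Ddit4 lies above 0 on the knockdown axis at 0.34.

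Across the 8 groups the mean level was highest in the libraries labelled Foxk1 overexpression for 7 genes, with Foxk2 overexpression for Atf3 and Asns, and in the Foxk1-set scrambled controls for Sesn2. It was lowest with the Foxk1 shRNA for 9 genes, and in the Foxk1-set empty-vector controls for Sesn2. These ranks run across the Foxk1 and Foxk2 sets, which also differ in depth and in the number of libraries. Atf3 averaged 20.6 RPKM in the Foxk2-set empty-vector controls and 12.6 RPKM in the libraries labelled Foxk1 overexpression. A rank can thus reflect the set as well as the manipulation. The order of Ddit4 began at 108 ± 6.85 RPKM (SD, n = 3) in the libraries labelled Foxk1 overexpression and 52.5 RPKM (n = 2) with Foxk2 overexpression, and these stood apart from each other and from the rest. Below them the Foxk2 shRNA group (27.5 RPKM) overlapped the Foxk1-set empty-vector controls (25.0 ± 5.92 RPKM), which overlapped the Foxk1-set scrambled controls (24.6 ± 0.757 RPKM). Its remaining groups were the Foxk2-set scrambled controls at 21.6 RPKM, the Foxk2-set empty-vector controls at 18.3 RPKM and the Foxk1 shRNA at 13.2 ± 1.44 RPKM. For Sesn2 the top group, the Foxk1-set scrambled controls at 15.5 ± 1.51 RPKM, overlapped the libraries labelled Foxk1 overexpression at 15.4 ± 0.455 RPKM.

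The control cells were not alike. In the Foxk1 set the empty-vector mean was 2.26 times the scrambled mean for Atf3 (9.16 and 4.05 RPKM), 1.43 times for Asns (76.2 and 53.3 RPKM) and 1.39 times for Ppp1r15a (16.3 and 11.7 RPKM), with no overlap between libraries. Sesn2 went the other way, with 8.15 RPKM in empty-vector and 15.5 RPKM in scrambled libraries, a ratio of 0.526. Trib3 had 202 RPKM with the empty vector and 152 RPKM with the scrambled shRNA. In the Foxk2 set these ratios lay nearer to 1 for Asns (0.922), Ppp1r15a (0.95), Sesn2 (1.04) and Trib3 (1.06), and Atf3 was at 1.49. The ratio of Ddit4 lay nearer to 1 in the Foxk1 set (1.02, with overlap) than in the Foxk2 set (0.847, with no overlap). For Sesn2 the Foxk1 shRNA level of 11.5 RPKM was therefore above the empty-vector level of the same set, so its fall is one against the scrambled control.

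Taken library by library as deviations from the mean of their own controls, the 10 genes varied together. The 45 pairs had Pearson correlations of 0.729 to 0.993 over 20 libraries, with a median of 0.908, and since the libraries of a group share its shift this describes the groups more than the libraries. Ddit3 and Chac1 were the closest pair at 0.993 and Trib3 and Asns the least close at 0.729. Among 9328 other genes with a mean of at least 2 RPKM, Atf4 was most closely followed by Mthfd1l (0.992), of mitochondrial one-carbon metabolism, and by Slc7a5 (0.991), a leucine transporter, then Cyb5r1 (0.99) and Peli2 (0.988). Ddit3 was followed by Cdsn (0.986), the mitochondrial protease gene Lonp1 (0.985), Grhpr (0.983) and Pfkl (0.982). For Ddit4 they were Scly (0.983), Golga2 (0.979), Klf10 (0.977) and Aldh18a1 (0.97), of proline synthesis, and for Asns they were Ccdc47 (0.992), Hint1 (0.992), Edem1 (0.989) and Itga6 (0.987).

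The lists of related genes that follow are read against all genes tested, of which 24.1% rose and 23.8% fell in the libraries labelled Foxk1 overexpression, 20.4% rose and 15.5% fell with the Foxk1 shRNA, 23.0% rose and 22.0% fell with Foxk2 overexpression, and 18.0% rose and 15.7% fell with the Foxk2 shRNA. The lists were chosen with earlier results of these data known, so their counts and medians describe the genes and are no independent test. Genes upstream of ATF4 changed in both directions, and the direction went with the kind of gene. Of 17 genes for the eIF2 kinases, eIF2, its exchange factor eIF2B and their regulators, 6 rose and 5 fell in the libraries labelled Foxk1 overexpression, and 4 rose and 6 fell with the Foxk1 shRNA. With Foxk2 overexpression 7 rose and 1 fell, and with the Foxk2 shRNA 0 rose and 6 fell. The medians lay between -0.11 and 0.08. The genes that fell in the libraries labelled Foxk1 overexpression were Impact, an inhibitor of GCN2 activation (-0.50), Oma1, a mitochondrial protease that relays stress to eIF2 (-0.47), and 3 of the 4 kinase genes, Eif2ak3 or PERK (-0.26), Eif2ak4 or GCN2 (-0.17) and Eif2ak2 or PKR (-0.16). The same 3 kinase genes rose with the Foxk1 shRNA, at 0.19, 0.16 and 0.17, as did Impact at 0.26. All 6 genes that rose in the libraries labelled Foxk1 overexpression encode subunits of eIF2 or eIF2B, as do the 6 that fell with the Foxk1 shRNA. The 7 that rose with Foxk2 overexpression were subunit genes too, and the 6 that fell with the Foxk2 shRNA were subunit genes and Dnajc3. In each comparison some subunit genes did not pass. Eif2b2 averaged 23.0 RPKM in the libraries labelled Foxk1 overexpression and 14.8 RPKM in empty-vector libraries (log2 0.62), and Eif2s2 averaged 30.5 and 23.3 RPKM. Eif2s3x (-0.48), Eif2b5 (-0.20) and Eif2b1 (-0.19) fell with the Foxk1 shRNA. Impact was the only gene of the list that fell with Foxk2 overexpression (-0.38), where Eif2b2 (0.38), Eif2s2 (0.29) and Eif2b1 (0.19) rose. Eif2b2 (-0.27), Eif2s1 (-0.26), Eif2b1 (-0.23) and Eif2b5 (-0.19) fell with the Foxk2 shRNA.

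The genes for proteins that pair or compete with ATF4 at DNA were divided. Of 23 tested, 11 rose and 1 fell in the libraries labelled Foxk1 overexpression (median 0.17), and 5 rose and 7 fell with the Foxk1 shRNA (median 0.03). With Foxk2 overexpression 4 rose and 8 fell (median -0.07), and with the Foxk2 shRNA 6 rose and 2 fell (median 0.07). Cebpb, a partner of ATF4 and an early factor of fat cell differentiation, averaged 148 RPKM in the libraries labelled Foxk1 overexpression and 73.1 RPKM in empty-vector libraries (log2 1.02 ± 0.107, adjusted p = 1.18e-06). With Foxk2 overexpression it averaged 133 RPKM, against 87.7 RPKM with the empty vector (0.59 ± 0.131, adjusted p = 0.00152). Cebpd, its relative, rose with the Foxk2 shRNA, with 22.4 RPKM against 10.6 RPKM with the scrambled shRNA (1.04 ± 0.0797, adjusted p = 8.48e-08). Junb, a subunit of AP-1, was the only gene to fall in the libraries labelled Foxk1 overexpression (-0.54), fell with Foxk2 overexpression (-0.91), and rose with the Foxk1 shRNA (0.70) and the Foxk2 shRNA (1.25).

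Relatives of the 10 genes by sequence or function did not all follow them. Of 9 tested, 4 rose and 3 fell in the libraries labelled Foxk1 overexpression (median 0.15), and 4 rose and 2 fell in each of the other 3 comparisons (medians 0.08 with the Foxk1 shRNA, 0.02 with Foxk2 overexpression and -0.02 with the Foxk2 shRNA). Sesn3, the relative of Sesn2 best known as a FOXO target, moved opposite to Sesn2 in the Foxk1 set. It averaged 4.71 RPKM in the libraries labelled Foxk1 overexpression and 9.16 RPKM in empty-vector libraries, then 26.2 RPKM with the Foxk1 shRNA and 17.7 RPKM with the scrambled shRNA (log2 -0.89 ± 0.0448 and 0.55 ± 0.0448). Its Foxk2 changes were -0.32 and 0.62, where those of Sesn2 did not pass. Trib2 likewise rose with both shRNAs, at 0.65 for Foxk1 and 0.52 for Foxk2, while Trib3 fell with both. Ppp1r15b, which gives the constant counterpart of GADD34, followed Ppp1r15a at 0.52 in the libraries labelled Foxk1 overexpression, -0.26 with the Foxk1 shRNA, 0.75 with Foxk2 overexpression and -0.24 with the Foxk2 shRNA. Aspg, an asparaginase gene and so acting opposite to Asns, averaged 9.68 RPKM in the libraries labelled Foxk1 overexpression and 1.66 RPKM in empty-vector libraries (2.24 ± 0.0873, adjusted p = 1.75e-11). With Foxk2 overexpression Aspg averaged 15.1 RPKM, against 1.28 RPKM with the empty vector (3.13 ± 0.107, adjusted p = 9.61e-12), and it fell with both shRNAs (-0.52 and -0.56).

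The medians of other known ATF4 targets had the signs of those of the 10 genes. Of 25 tested, 17 rose and 4 fell in the libraries labelled Foxk1 overexpression (median 0.35), and 3 rose and 16 fell with the Foxk1 shRNA (median -0.33). With Foxk2 overexpression 14 rose and 7 fell (median 0.32), and with the Foxk2 shRNA 3 rose and 12 fell (median -0.18). Adm2, a hormone gene, averaged 3.57 RPKM in the libraries labelled Foxk1 overexpression and 0.23 RPKM in empty-vector libraries (2.48 ± 0.113), and the growth-arrest gene Gadd45a 62.8 and 30.9 RPKM (1.01 ± 0.0464). With the Foxk1 shRNA the oxidase gene Ero1l of the endoplasmic reticulum averaged 35.6 RPKM, against 163 RPKM with the scrambled shRNA (-2.18 ± 0.106), and the stress regulator Nupr1 41.0 RPKM against 86.3 RPKM (-1.06 ± 0.0469). Ero1l is also counted among the hypoxia targets below, and Gadd45a among the p53 targets. Gpt2, for alanine synthesis, rose with Foxk2 overexpression (76.4 against 36.8 RPKM with the empty vector, 1.05 ± 0.0326) and fell with the Foxk2 shRNA (35.2 against 45.3 RPKM with the scrambled shRNA, -0.36 ± 0.0326). Some genes of the list went the other way. Nrp1, a receptor gene, fell in the libraries labelled Foxk1 overexpression (-1.09) and with Foxk2 overexpression (-0.60), and rose with the Foxk1 shRNA (0.35) and the Foxk2 shRNA (0.77). Rnf122 (-0.61), Map1lc3b (-0.35) and Tfe3 (-0.21) also fell in the libraries labelled Foxk1 overexpression.

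Genes that charge transfer RNAs with amino acids gave the most uniform counts of the amino acid lists. Of 20 cytosolic aminoacyl-tRNA synthetases, 19 rose and 0 fell in the libraries labelled Foxk1 overexpression (median 0.43), and 0 rose and 16 fell with the Foxk1 shRNA (median -0.20). With Foxk2 overexpression 15 rose and 0 fell (median 0.27), and with the Foxk2 shRNA 0 rose and 10 fell (median -0.14). Gars averaged 111 RPKM in the libraries labelled Foxk1 overexpression and 69.3 RPKM in empty-vector libraries, and 142 RPKM with Foxk2 overexpression against 93.2 RPKM with the empty vector. Eprs had changes of 0.71 in the libraries labelled Foxk1 overexpression, -0.47 with the Foxk1 shRNA and 0.54 with Foxk2 overexpression.

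Amino acid and one-carbon synthesis showed a like balance with exceptions. Of 14 tested, 11 rose and 2 fell in the libraries labelled Foxk1 overexpression (median 0.53), and 0 rose and 10 fell with the Foxk1 shRNA (median -0.27). With Foxk2 overexpression 8 rose and 2 fell (median 0.32), and with the Foxk2 shRNA 0 rose and 7 fell (median -0.12). Psat1, for serine synthesis, fell with the Foxk1 shRNA (51.5 against 81.0 RPKM with the scrambled shRNA, -0.65) and the Foxk2 shRNA (72.1 against 116 RPKM, -0.68), and rose with Foxk2 overexpression (135 against 88.7 RPKM with the empty vector, 0.60). Phgdh, which encodes the enzyme at the start of the same pathway, went the other way from Psat1 with Foxk2 overexpression, with 26.0 RPKM against 58.3 RPKM with the empty vector (-1.15 ± 0.0544, adjusted p = 2.56e-10), and fell also in the libraries labelled Foxk1 overexpression (-0.66). Aldh1l2, of mitochondrial folate metabolism, had changes of 0.82 in the libraries labelled Foxk1 overexpression, -1.27 with the Foxk1 shRNA, 1.00 with Foxk2 overexpression and -0.22 with the Foxk2 shRNA. The amino acid transporters were less uniform. Of 10 tested, 8 rose and 0 fell in the libraries labelled Foxk1 overexpression (median 0.32), and 2 rose and 5 fell with the Foxk1 shRNA (median -0.14). With Foxk2 overexpression 5 rose and 4 fell (median 0.14), and with the Foxk2 shRNA 2 rose and 3 fell (median -0.04). Slc7a5 moved with the 10 genes in each comparison (0.75, -0.52, 0.38 and -0.23 in the order just used), while the glycine transporter gene Slc6a9 (-0.68) and Slc1a4 (-0.42) fell with Foxk2 overexpression.

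Genes of neighbouring stress programs were counted in the same way. Of 12 mitochondrial stress genes, 9 rose and 1, Oma1, fell in the libraries labelled Foxk1 overexpression (median 0.46), and 0 rose and 9 fell with the Foxk1 shRNA (median -0.31). With Foxk2 overexpression 8 rose and 0 fell (median 0.51), and with the Foxk2 shRNA 0 rose and 7 fell (median -0.24). Lonp1 averaged 277 RPKM in the libraries labelled Foxk1 overexpression and 165 RPKM in empty-vector libraries (0.75 ± 0.0485), and 92.9 RPKM with the Foxk1 shRNA and 168 RPKM with the scrambled shRNA (-0.85 ± 0.0485). The ATF6 and XBP1 branches of the unfolded protein response, which run in parallel to ATF4, did not show this balance in the Foxk1 set. Of their 21 genes, 6 rose and 5 fell in the libraries labelled Foxk1 overexpression (median -0.03), and 9 rose and 5 fell with the Foxk1 shRNA (median 0.08). With Foxk2 overexpression 11 rose and 2 fell (median 0.19), and with the Foxk2 shRNA 1 rose and 11 fell (median -0.09). The chaperone gene Calr averaged 198 RPKM in the libraries labelled Foxk1 overexpression and 293 RPKM in empty-vector libraries, and 396 RPKM with the Foxk1 shRNA and 286 RPKM with the scrambled shRNA (-0.56 ± 0.0362 and 0.47 ± 0.0362). Edem1, named above beside Asns, moved opposite to Calr in the Foxk1 set. Its changes were 0.40 in the libraries labelled Foxk1 overexpression and -0.20 with the Foxk1 shRNA. They were 0.30 with Foxk2 overexpression and -0.34 with the Foxk2 shRNA. Hspa5, for the chaperone BiP, rose with Foxk2 overexpression, with 216 RPKM against 145 RPKM with the empty vector (0.58 ± 0.0419, adjusted p = 2.45e-08).

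Ddit4, Sesn2 and others of the 10 also answer to hypoxia, p53 and glucocorticoids. Of 19 hypoxia targets, 17 rose and 1 fell in the libraries labelled Foxk1 overexpression (median 0.70), and 3 rose and 14 fell with the Foxk1 shRNA (median -0.70). With Foxk2 overexpression 14 rose and 1 fell (median 0.49), and with the Foxk2 shRNA 4 rose and 10 fell (median -0.27). Egln3, an oxygen sensor gene, averaged 6.16 RPKM with the Foxk1 shRNA and 42.6 RPKM with the scrambled shRNA (-2.69 ± 0.119), and 32.6 RPKM with Foxk2 overexpression and 6.99 RPKM with the empty vector (2.14 ± 0.145). Adm was the hypoxia gene that fell in both overexpression comparisons, at -1.57 in the libraries labelled Foxk1 overexpression and -0.59 with Foxk2 overexpression. Of 16 p53 targets, 9 rose and 3 fell in the libraries labelled Foxk1 overexpression (median 0.14), 5 rose and 4 fell with the Foxk1 shRNA (median -0.03), 7 rose and 4 fell with Foxk2 overexpression (median 0.09), and 3 rose and 4 fell with the Foxk2 shRNA (median -0.07). Cdkn1a, for the cell cycle inhibitor p21, moved with the 10 genes, at 1.05 in the libraries labelled Foxk1 overexpression, -0.56 with the Foxk1 shRNA, 0.66 with Foxk2 overexpression and -0.37 with the Foxk2 shRNA. Of 16 glucocorticoid-induced genes, 9 rose and 3 fell in the libraries labelled Foxk1 overexpression (median 0.27), 2 rose and 6 fell with the Foxk1 shRNA (median -0.04), 8 rose and 4 fell with Foxk2 overexpression (median 0.26), and 8 rose and 6 fell with the Foxk2 shRNA (median 0.16). Mt2, a metallothionein gene, averaged 893 RPKM in the libraries labelled Foxk1 overexpression and 483 RPKM in empty-vector libraries, and 100 RPKM with the Foxk1 shRNA and 180 RPKM with the scrambled shRNA.

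Immediate early genes, which Atf3 is often counted among, had medians opposite in sign to the change of Atf3 in each comparison. Of 19 tested, 4 rose and 6 fell in the libraries labelled Foxk1 overexpression (median -0.14), and 15 rose and 1 fell with the Foxk1 shRNA (median 0.55). With Foxk2 overexpression 2 rose and 13 fell (median -0.50), and with the Foxk2 shRNA 11 rose and 1 fell (median 0.41). Klf6 had changes of -0.46 in the libraries labelled Foxk1 overexpression, 0.37 with the Foxk1 shRNA, -0.82 with Foxk2 overexpression and 0.54 with the Foxk2 shRNA. Maff went the other way in each comparison, at 0.73, -0.68, 0.42 and -0.35 in the same order, and Myc (0.38), Ier2 (0.36) and Fosl1 (0.30) also rose in the libraries labelled Foxk1 overexpression and Nr4a1 (0.28) with Foxk2 overexpression. Genes of the mTORC1 pathway, on which Ddit4 and Sesn2 act, had medians near 0. Of 22 tested, 7 rose and 6 fell in the libraries labelled Foxk1 overexpression (median 0.04), 2 rose and 6 fell with the Foxk1 shRNA (median -0.01), 8 rose and 4 fell with Foxk2 overexpression (median 0.06), and 3 rose and 7 fell with the Foxk2 shRNA (median -0.09). Seh1l, of the nutrient-sensing GATOR2 complex and the nuclear pore, had changes of 0.65, -0.36, 0.60 and -0.21, and Depdc5, of the opposing GATOR1 complex, 0.23, -0.24, 0.44 and -0.29 in the same order.

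**Figure D4:**
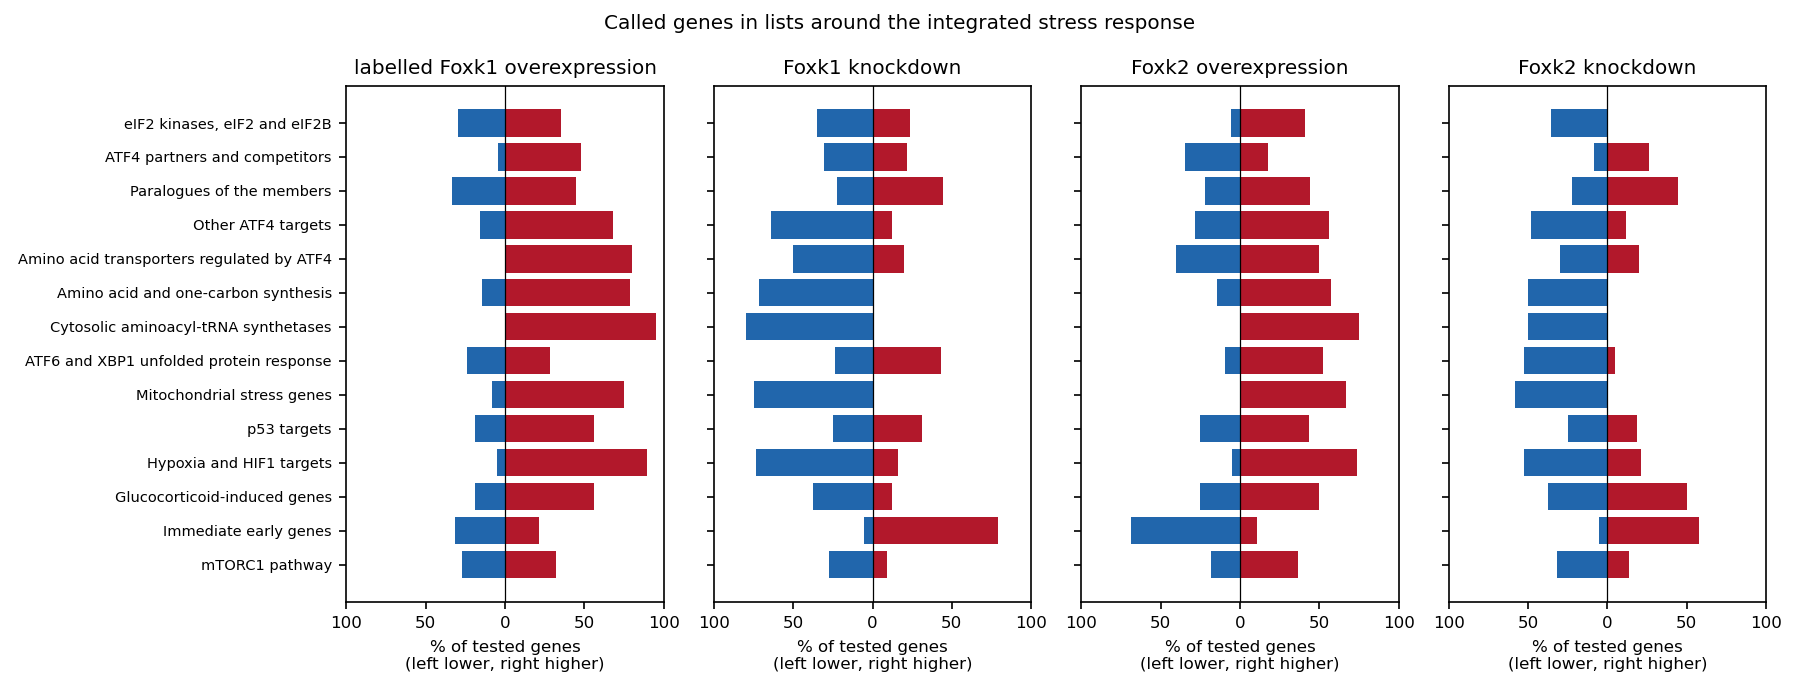
Share of the tested genes of each list (x axis, %) called higher (to the right of 0) or lower (to the left of 0) in the 4 comparisons. Cytosolic aminoacyl-tRNA synthetases point right in both overexpression panels (19 and 15 of 20 higher) and left in both knockdown panels (16 and 10 of 20 lower).

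Markers of the cell state moved in the same comparisons. All 21 adipocyte markers were present in each group, and their summed level was 13200 to 13300 RPKM in the libraries labelled Foxk1 overexpression and 17900 to 18200 RPKM in empty-vector libraries, then 13600 to 14400 RPKM with the Foxk1 shRNA and 16600 to 17300 RPKM with the scrambled shRNA. For the Foxk2 libraries it was 12500 to 12600 RPKM with overexpression and 16200 to 16500 RPKM with the empty vector, and 15000 to 15500 RPKM with the Foxk2 shRNA and 18000 to 18200 RPKM with the scrambled shRNA. The sum was thus lower in all 4 manipulations. It weighs each marker by its abundance, and Cfd alone averaged 4480 RPKM in the Foxk1-set empty-vector libraries. By gene, 5 rose and 12 fell in the libraries labelled Foxk1 overexpression, 1 rose and 14 fell with the Foxk1 shRNA, 8 rose and 11 fell with Foxk2 overexpression, and 4 rose and 11 fell with the Foxk2 shRNA. Adipoq, the hormone of mature fat cells, averaged 802 RPKM in the libraries labelled Foxk1 overexpression and 2000 RPKM in empty-vector libraries. Dgat2, for triglyceride synthesis, went the other way, with 670 RPKM in the libraries labelled Foxk1 overexpression and 312 RPKM in empty-vector libraries (log2 1.11). It rose with Foxk2 overexpression too (1.83) and fell with the Foxk1 shRNA (-0.75) and the Foxk2 shRNA (-1.39). The glucose transporter gene Slc2a4 had the same signs. Its changes were 0.53 in the libraries labelled Foxk1 overexpression, -0.83 with the Foxk1 shRNA, 0.60 with Foxk2 overexpression and -0.91 with the Foxk2 shRNA. Fibroblast and preadipocyte markers had medians opposite in sign to those of the 10 genes, and none of the 22 listed was at 0 throughout a group. Of 21 tested, 0 rose and 20 fell in the libraries labelled Foxk1 overexpression (median -1.29), 20 rose and 0 fell with the Foxk1 shRNA (0.72), 0 rose and 20 fell with Foxk2 overexpression (-0.996), and 21 rose and 0 fell with the Foxk2 shRNA (1.33). Their summed level was 1210 to 1240 RPKM in the libraries labelled Foxk1 overexpression and 2550 to 2890 RPKM in empty-vector libraries, and 5820 to 6040 RPKM with the Foxk1 shRNA and 3690 to 3970 RPKM with the scrambled shRNA. It was 1180 to 1200 RPKM with Foxk2 overexpression and 2490 to 2560 RPKM with the empty vector, and 3790 to 3860 RPKM with the Foxk2 shRNA and 1770 to 1790 RPKM with the scrambled shRNA. The part of this shift in the levels of the 10 genes was not tested. The 10 macrophage markers summed to between 3.77 and 8.05 RPKM in every library, with 2 to 4 of them at 0 throughout a group. Of the 4 that could be tested, 1 rose and 1 fell in the libraries labelled Foxk1 overexpression, 1 rose with the Foxk1 shRNA, 1 fell with Foxk2 overexpression and 2 rose with the Foxk2 shRNA; Cd14 was the gene that fell in both overexpression comparisons.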

How the data were processed

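Libraries of total RNA from 3T3-L1 adipocytes were sequenced by the authors, and 1 table of RPKM values over GENCODE gene identifiers was deposited for all 20 libraries. Per the submitters' processing notes the tools were HISAT2 2.1.0, Picard 1.141, featureCounts of Subread 1.5.1 and edgeR, with genome build mm10. Whether counting used strand is not given in the sources used here. Symbols, exon lengths and positions came from GENCODE M21, in which 40606 of the 48440 identifiers matched with version and 48058 without. With the exon lengths, 100% of values above 0 lay within 0.1 read of a whole read for identifiers that match with version; Atf4 and Ddit4 match only without version, so their read counts assume the smallest exon length that gives whole reads.

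Genes with at least 0.5 RPKM in at least 2 libraries (15981) were fitted on log2(RPKM + 0.5) in limma 3.58.1 (R 4.3.3) with 8 group means over all 20 libraries and 12 residual degrees of freedom, a trend in the prior variance and Benjamini-Hochberg adjustment over all genes tested, two-sided. The pseudocount understates the change of low genes. A difference between factors is the difference of their log2 fold changes in the same fit. The script was tested on simulated data. A BLAST+ 2.17.0 search of GENCODE transcripts for copies of the 10 genes asked for 99% identity along 100 bases or more, and only Ddit3 had a match. That match was to the second annotated gene of the same name, which overlaps it, and covered 10.8% of its longest transcript. Promoter windows came from RefSeq. The 10 genes and the 17 lists around them, which share some genes, were chosen with earlier results of these data known. In the lists, up to 4 called genes of smallest p were named by rule, and others, named because they were the exceptions, were chosen after their values were seen. The alternatives were 3 filters, 2 pseudocounts, 2 scalings, a fit of 1 factor's libraries, a replicate block, voom on recovered reads, removal of length and GC trends, and leaving out each library.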

Additional observations from a re-analysis of the deposited data

Results flagged for a closer look

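The change over own control differed between the Foxk1 and Foxk2 manipulations, by a test of the difference itself, for 15 of the 20 pairs of changes compared (10 genes, overexpression and knockdown). Over all genes tested, 25.1% differed between the overexpressions and 14.3% between the knockdowns. The Foxk1 and Foxk2 sets also differ in depth and in the number of libraries. The overexpression difference of Ddit4 and the knockdown differences of Sesn2 and Asns turned on single libraries, as given above. Between the libraries labelled Foxk1 overexpression and Foxk2 overexpression the differences on the log2 scale (Foxk1 minus Foxk2) were 0.39 for Atf4, 0.45 for Ddit3, 0.61 for Ddit4, 0.64 for Trib3, 0.53 for Chac1, 0.81 for Sesn2 and 0.61 for Ppp1r15a. Between the Foxk1 shRNA and the Foxk2 shRNA they were -0.25 for Atf4, -0.42 for Atf5, -0.93 for Ddit3, -1.21 for Ddit4, -1.10 for Trib3, -0.82 for Chac1, -0.35 for Sesn2 and 0.24 for Asns. Ddit4 is the gene whose knockdown changes have opposite signs, -0.87 with the Foxk1 shRNA and 0.34 with the Foxk2 shRNA, the second of which did not pass on its own.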

How the results depend on the processing

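All 10 genes remained called higher in the libraries labelled Foxk1 overexpression and lower with the Foxk1 shRNA under each of the 31 alternatives, of which 20 left out a library. Leaving out a library gave 7 to 8 genes higher with Foxk2 overexpression, 5 to 8 lower and 0 to 1 higher with the Foxk2 shRNA, 6 to 7 differing between the overexpressions and 6 to 10 between the knockdowns. With voom on recovered reads 1 gene, Ddit4, was called higher with the Foxk2 shRNA, and the genes called in all were 7423, 5563, 7961 and 6348 in the libraries labelled Foxk1 overexpression, with the Foxk1 shRNA, with Foxk2 overexpression and with the Foxk2 shRNA. Signs turned only for values near 0 that had not passed: Trib3 with Foxk2 overexpression was -0.137 with quantile normalization, -0.0207 without empty-vector replicate 2 and -0.00868 without overexpression replicate 2, in a range up to 0.0265 over the libraries left out, and Sesn2 with the Foxk2 shRNA was 0.0133 without shRNA replicate 2 and -0.145 without shRNA replicate 1. The overexpression difference of Atf5 was 0.00861, 0.0061 and 0.00369 without empty-vector replicate 1 of the Foxk2 set, empty-vector replicate 3 of the Foxk1 set and replicate 1 of the libraries labelled Foxk1 overexpression, with a lowest value of -0.0363, and that of Asns was -0.0306 without Foxk2 overexpression replicate 1 and at most 0.0999. With length and GC trends removed it was -0.205 for Atf5 and passed (adjusted p = 0.00461), and the share of calls that were higher was 43.5% in place of 56.9% with the Foxk1 shRNA and 40.4% in place of 53.5% with the Foxk2 shRNA; the cause was not tested. Same-numbered deviations correlated at -0.0858 to 0.0331, and 0 of 3 libraries labelled Foxk1 overexpression and 2 of 3 Foxk1 shRNA libraries were closest to their own number. With so few libraries these values cannot show whether libraries were made in pairs. In the Foxk2 set both replicate numbers of a comparison give the same value. With the replicate block 7335, 5350, 6827 and 4960 genes were called in the order above, against 7643, 5734, 7188 and 5386 without it, and Atf5 with the Foxk2 shRNA (-0.125, adjusted p = 0.0439) and the knockdown difference of Ppp1r15a (-0.321, adjusted p = 0.0373) passed.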
